A study of Mus musculus with 12 samples.

Results

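Germ cells and somatic cells of the fetal mouse ovary were compared by bulk RNA-seq in embryos whose dams had received only saline. The comparison used 6 of the 12 libraries of the series, 3 from germ cells and 3 from somatic cells, chosen by their cell type and treatment labels alone, and it covered every gene of the count table. All 6 libraries came from female embryos collected at E15.5 (embryonic day) of the line Tg(Pou5f1-EGFP)2Mnn, in which regulatory sequence of Pou5f1 (OCT4) drives enhanced GFP in germ cells. The pregnant dams had been injected intraperitoneally with saline daily, first on E12.5 and last on the day of collection, so both groups shared the injections, and no uninjected control was part of the comparison. Mesonephroi were dissected away, ovaries were dissociated, doublets and dead cells were gated out, and live cells were sorted into a GFP-positive (germ cell) and a GFP-negative (somatic cell) fraction. The GFP-positive gate rests on a single transgene, and the GFP-negative fraction is a mixture of every other cell type of the ovary. Each library pooled ovaries over several litters, so p-values measure the spread between such pools, and the libraries of the fractions carried the same replicate numbers without a stated pairing.

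Fetal ovarian germ cells stop dividing by mitosis and enter meiosis before birth. During meiotic prophase, cohesin and axis proteins shape each chromosome, programmed DNA breaks are made and repaired by recombination with the homologous chromosome, and the synaptonemal complex holds the homologs together. The germ cells are surrounded by somatic cells that include pregranulosa cells, which supply signals such as KIT ligand and WNT4, together with stroma, surface epithelium, blood vessels, macrophages and circulating red cells. Transcription of meiotic genes in other cells is held off by repressors such as the complex that contains the DNA-binding proteins MGA, MAX and E2F6, and STRA8 and MEIOSIN are known inducers of the meiotic programme.

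The sequences upstream of some strongly restricted genes are shown to place the later values beside the letters that these known regulators read. The RefSeq promoter table for the build GRCm38.p6 gave the 250 bases upstream of the start of 11664 of the 17941 genes tested (65.0%). Each is written 5′ to 3′ on the strand of its gene, in lower case, with capitals marking CACGTG (the E-box read by MAX and MGA), GCGGGAA (an E2F6 site) or CAAGGTCA (a site of NR5A1, the steroidogenic factor of gonadal somatic cells), searched on both strands. The promoters that follow were picked because each holds a marked motif, so they are no sample of the restricted genes. Those of Ankrd31, Syce3, Asz1 and Dazl, genes also far higher in germ cells, hold neither CACGTG nor GCGGGAA. Of the genes whose promoters follow, Sycp1 and Sycp3 encode parts of the synaptonemal complex, Hormad1 a chromosome axis protein, Taf7l a germ cell subunit of the TFIID transcription factor, and Amhr2 the receptor for anti-Müllerian hormone on gonadal somatic cells. The printed promoters lie at chr3:102936101-102936350 on the minus strand (Sycp1), chr10:88459337-88459586 on the plus strand (Sycp3), chr3:95559427-95559676 on the plus strand (Hormad1), chrX:134476491-134476740 on the minus strand (Taf7l) and chr15:102445117-102445366 on the plus strand (Amhr2).
Sycp1: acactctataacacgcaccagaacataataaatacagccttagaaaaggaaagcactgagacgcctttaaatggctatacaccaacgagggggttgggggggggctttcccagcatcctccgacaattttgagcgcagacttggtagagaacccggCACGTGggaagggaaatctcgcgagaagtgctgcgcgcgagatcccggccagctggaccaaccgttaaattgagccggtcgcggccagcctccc
Sycp3: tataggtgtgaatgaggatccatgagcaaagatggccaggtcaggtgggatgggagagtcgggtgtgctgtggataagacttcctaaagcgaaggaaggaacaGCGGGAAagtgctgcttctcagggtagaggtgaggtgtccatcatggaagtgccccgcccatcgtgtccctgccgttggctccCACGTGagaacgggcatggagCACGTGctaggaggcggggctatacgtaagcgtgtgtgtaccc
Hormad1: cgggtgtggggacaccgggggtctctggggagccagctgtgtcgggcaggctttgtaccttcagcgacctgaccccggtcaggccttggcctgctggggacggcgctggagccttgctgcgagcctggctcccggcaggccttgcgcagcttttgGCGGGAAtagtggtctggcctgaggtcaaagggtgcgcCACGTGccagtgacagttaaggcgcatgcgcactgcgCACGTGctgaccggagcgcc
Taf7l: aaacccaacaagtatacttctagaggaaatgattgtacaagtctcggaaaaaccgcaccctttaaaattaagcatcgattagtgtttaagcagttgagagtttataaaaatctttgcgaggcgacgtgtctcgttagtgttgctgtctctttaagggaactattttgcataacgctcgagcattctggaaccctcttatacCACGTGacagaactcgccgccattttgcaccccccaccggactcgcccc
Amhr2: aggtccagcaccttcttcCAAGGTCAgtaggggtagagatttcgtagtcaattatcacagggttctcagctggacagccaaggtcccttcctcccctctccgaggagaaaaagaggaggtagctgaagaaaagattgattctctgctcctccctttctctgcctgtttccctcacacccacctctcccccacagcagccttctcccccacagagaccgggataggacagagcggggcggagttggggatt

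The E-box began 94 bases before the start of Sycp1, 64 and 43 bases before that of Sycp3, 57 and 20 bases before that of Hormad1 and 49 bases before that of Taf7l. GCGGGAA began 147 bases before Sycp3 and 95 bases before Hormad1, and CAAGGTCA began 232 bases before Amhr2. Among 64 promoters of genes from the lists of meiotic entry, chromosome axis, break formation, recombination and germline RNA pathways, 21.9% held CACGTG, against 8.28% of all promoters of tested genes and 6.05% of the 27025 promoters in the table. GCGGGAA was present in 20.3% of the 64, against 6.96% of tested and 3.84% of all promoters. Either motif was present in 23 of the 64 (35.9%, against 14.7% of tested genes) and both in 4, those of Ddx4, Hormad1, Sycp3 and Tex12 (6.25%, against 0.592%). The motif of STRA8, CNCCTCAG, occurred in 7.81% of the 64 and in 7.12% of tested promoters. The shares were lower over the whole set of genes called at least 8-fold higher in germ cells, with CACGTG in 8.0% and GCGGGAA in 8.09% of 1075 promoters. Among the 1964 promoters of genes at least 8-fold lower in germ cells, CAAGGTCA occurred in 1.43%, against 0.935% of tested genes, and the median number of CpG dinucleotides was 10, against 12 for the 8-fold higher and 15 for all tested genes. A match of letters is a description and no measure of binding, and promoters were counted only where a table entry matched a gene.

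The 6 libraries held 15161804 to 17616664 counts. At least 1 count was found for 25453 to 25906 genes in germ cell libraries and for 24052 to 24383 genes in somatic libraries. Levels are given in CPM, counts scaled to one common library size after trimmed-mean (TMM) normalisation, and levels of different genes are compared in FPKM, the deposited value per kilobase of transcript. A level of 3 counts in a library, equal to 0.174 to 0.194 CPM, was taken as the floor of detection, and it covers counting error only. The 100 most abundant genes took 12.4% ± 0.0358 (SD, n = 3) of germ cell counts and 17.9% ± 0.554 of somatic cell counts, with no overlap between the groups (exact permutation p = 0.1, two-sided, the smallest that 3 against 3 allows). Every value is a share of a library, and RNA content per cell was not measured.

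Most genes differed between the fractions. Of 17941 genes tested with edgeR's quasi-likelihood test at a Benjamini-Hochberg (BH) adjusted p of at most 0.05, 15440 (86.1%) were called, 7739 (43.1%) higher and 7701 (42.9%) lower in germ cells. The call alone is therefore uninformative about a gene, and counts below also use a size limit. The shares of all genes that follow are the ones to set beside the counts of each list. At least 2-fold higher in germ cells were 5535 genes (30.9%) and at least 2-fold lower 6086 (33.9%). At least 8-fold higher were 1946 genes (10.8%) and at least 8-fold lower 3074 (17.1%). The median log2 difference (germ minus somatic) over all tested genes was 0.005 and the median absolute difference was 1.60. TMM scaling centres most log2 differences near 0 by design, so this median and the balance of calls are not independent of it. With library totals only, 7632 genes were called higher and 7785 lower. The biological coefficient of variation between replicates was 0.0977. The groups did not overlap for 15630 of the 17941 genes tested, and 182 called genes had overlapping groups. Of all genes, 127 reached a mean of 10 CPM in germ cells with every somatic library at or under the floor, and 37 did so in the reverse direction.

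The labels were checked with the reporter's own gene and with markers. Pou5f1, the pluripotency factor whose regulatory sequence drives the reporter, was at 17.0, 14.3 and 26.1 CPM in the germ cell libraries and at 0, 0.0648 and 0.121 CPM in the somatic libraries. The groups did not overlap, and every somatic library lay under the floor of detection. Dazl, an RNA-binding protein that licenses germ cells for meiosis, was at 1066, 1037 and 1134 CPM against 1.19, 1.36 and 0.967 CPM, a log2 difference of 9.84 (SE 0.123, edgeR adjusted p = 8.95e-16). Wt1, a transcription factor of the gonadal soma, was at 5.80, 8.80 and 11.02 CPM in germ cells against 470, 483 and 484 CPM in somatic cells (log2 -5.80, SE 0.151, adjusted p = 4.56e-14). Both genes separated the fractions completely, in opposite directions.

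Small amounts of the other fraction's transcripts were present on each side, and in bulk samples fewer cells of a type and less RNA per cell cannot be told apart. For members of the axis and synaptonemal complex list, the median level in a somatic library was 0.217% to 0.440% of the mean germ cell level, and for the germline RNA list 0.501% to 0.823%. It was higher for recombination (1.72% to 3.42%), meiotic entry (2.28% to 2.56%), break formation (2.46% to 3.96%) and pluripotency genes (7.04% to 10.9%). In germ cell libraries, the median stromal marker stood at 1.23% to 2.10% of its somatic level, the surface epithelium marker at 0.977% to 1.56%, the perivascular marker at 1.55% to 2.39% and the erythroid marker at 0.317% to 0.599%. Pregranulosa markers stood at 4.43% to 6.97%, endothelial markers at 4.04% to 7.02% and macrophage markers at 4.41% to 6.71%. Summed over its list, the level of stromal markers was 533 to 659.7 CPM in germ cell and 23634 to 26035 CPM in somatic libraries, that of pregranulosa markers 131 to 196 and 2315.5 to 2449 CPM, that of endothelial markers 63.3 to 69.7 and 554 to 633 CPM, and that of macrophage markers 37.8 to 46.6 and 257 to 326 CPM. No stromal, endothelial or macrophage marker was at the floor in all germ cell libraries. Germ cell replicate 1 held the least of several somatic transcripts, with Wnt4 at 1.74 CPM against 3.81 and 4.58 CPM in replicates 2 and 3. How far other cells or free RNA contribute to these low levels was not tested, and a gene of the other fraction at a level of this order is described below only by its values.

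**Figure D1:**
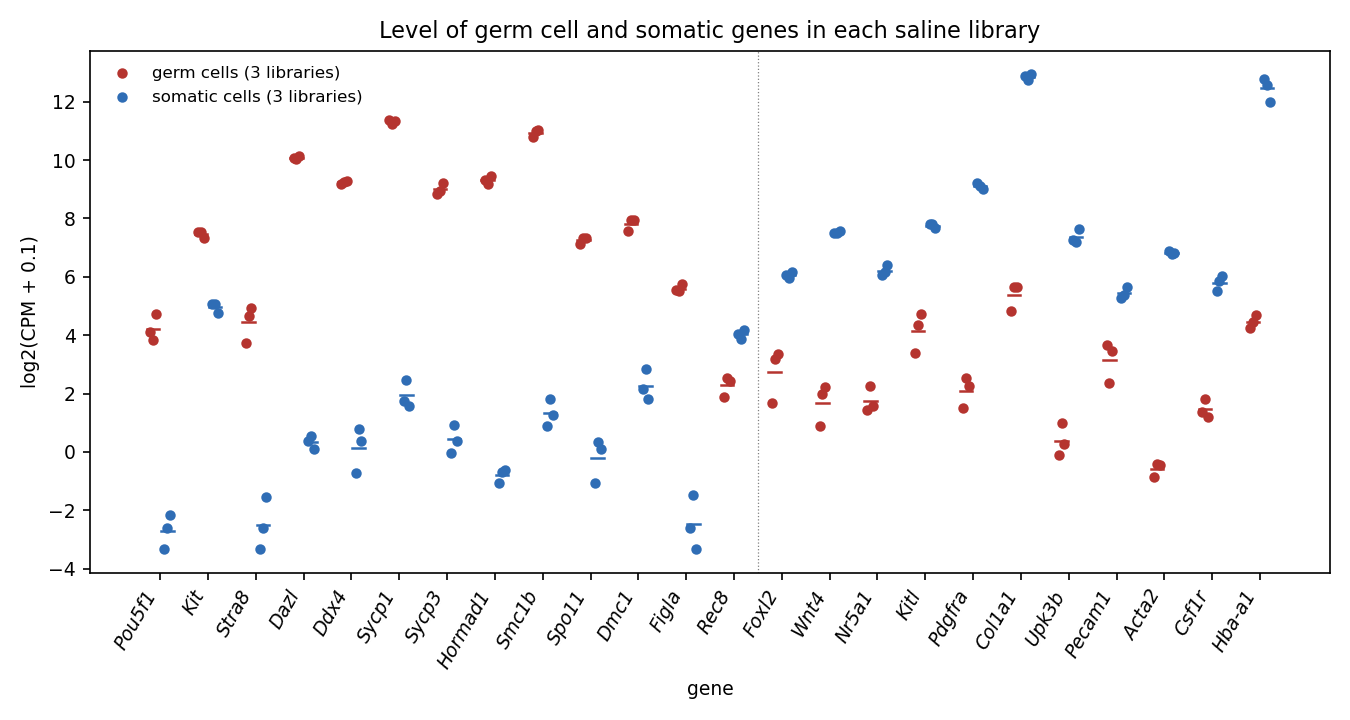
Levels of 13 germ cell genes (left of the dotted line) and 11 somatic genes (right) in each saline library, on a log2 scale of CPM with 0.1 added; points are libraries and short bars are means. Red germ cell points lie above blue somatic points for every gene on the left except Rec8, at 3.61 to 5.75 CPM in germ cells and 14.6 to 18.1 CPM in somatic cells, and below them for every gene on the right.

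Genes of the chromosome axis and synaptonemal complex showed the largest differences of the meiotic lists. Of 14 tested members, 13 were higher and 1 was lower in germ cells, 12 of them at least 8-fold higher (10.8% of all genes tested), and the median log2 difference was 8.35. Sycp1, the transverse filament of the complex (chr3:102818499-102936100), was at 2675, 2388 and 2612 CPM against 3.26, 5.44 and 2.90 CPM (log2 9.37, SE 0.168, adjusted p = 1.96e-15). At 722 ± 46.9 FPKM (SD, n = 3) it was the 9th most abundant protein-coding transcript of germ cells outside the mitochondrial genome. Hormad1, which marks unsynapsed axes, was at 631, 574 and 696 CPM against 0.376, 0.518 and 0.544 CPM (log2 10.35, SE 0.148, adjusted p = 9.87e-16). Smc1b, the meiotic SMC1 subunit of cohesin, was at 1764, 2018 and 2065 CPM against 1.75, 3.43 and 2.30 CPM (log2 9.61, SE 0.163, adjusted p = 1.31e-15). All 3 genes were separated without overlap, by 664-fold to 1301-fold. Sycp3, a lateral element protein, was at 452, 490 and 595 CPM against 0.877, 1.81 and 1.21 CPM (log2 8.62, SE 0.174, adjusted p = 4.38e-15), with 420 bases of its exons shared with the antisense gene Chpt1. Sycp2, Syce1, Syce3, Tex12 and Rad21l were also 8-fold higher, and Trip13, the ATPase that removes HORMA proteins from axes, was the least changed higher member at 59.9 against 23.6 CPM (log2 1.34).

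Rec8, the meiotic kleisin of cohesin, went against its list. It was at 3.61, 5.75 and 5.33 CPM in germ cells and at 16.5, 14.6 and 18.1 CPM in somatic cells, a log2 difference of -1.74 (SE 0.189, adjusted p = 5.52e-07). Every somatic library exceeded every germ cell library. The other meiotic kleisin gene, Rad21l, was at 98.9 ± 10.6 FPKM in germ cells, where Rec8 was at 1.67 ± 0.379 and the mitotic kleisin Rad21 at 17.4 ± 1.17 FPKM. In somatic cells Rad21l was at 0.111 ± 0.101, Rec8 at 5.43 ± 0.610 and Rad21 at 58.4 ± 0.712 FPKM. Rec8 shared no annotated exon bases with another gene.

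All 10 tested genes of meiotic break formation were at least 8-fold higher in germ cells, with a median log2 difference of 4.60. Spo11, the catalytic subunit of the break-forming enzyme, was at 141, 160 and 161 CPM against 0.376, 1.17 and 0.967 CPM (log2 7.51, SE 0.167, adjusted p = 1.05e-14). Prdm9, the histone methyltransferase that places breaks, was at 205, 269 and 273 CPM against 3.69, 4.66 and 3.75 CPM (log2 5.95, SE 0.141, adjusted p = 1.96e-14). The fractions were far apart for both, although Prdm9 was above the floor in every somatic library. Ankrd31, a partner of the break machinery, was at 258, 249 and 263 CPM with 0.188, 0.130 and 0.0605 CPM in somatic cells, and Mei4 was at a mean of 4.55 against 0.209 CPM (log2 4.40). Hells, a chromatin remodeller that works with PRDM9 and is also used in other dividing cells, was at 874 against 56.9 CPM (log2 3.94).

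Recombination genes followed the same direction over a wider range. Of 26 tested, 24 were higher and 1 lower, 17 of them at least 8-fold higher, with a median log2 difference of 5.19. Dmc1, the meiotic strand exchange protein, was at 188, 245 and 244 CPM against 4.38, 7.12 and 3.39 CPM (log2 5.51, SE 0.181, adjusted p = 5.09e-13). Hfm1, a helicase of crossover formation, was at 594, 621 and 767 CPM against 0.814, 3.56 and 1.93 CPM (log2 8.30, SE 0.240, adjusted p = 1.27e-13). The range within the list ran from genes that were nearly undetected in somatic cells, such as Spata22, Meiob, Msh4 and Rnf212, to repair genes that somatic cells also use. Sfr1, an accessory factor of strand exchange, was slightly lower at 146 against 173 CPM (log2 -0.24). Brca2, which loads strand exchange proteins, was at 723, 726 and 681 CPM against 45.9, 45.5 and 40.7 CPM (log2 4.01, SE 0.0821, adjusted p = 4.80e-15).

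Regulators of meiotic entry were split. Of 14 tested, 10 were at least 2-fold higher (30.9% of all genes), 9 of them at least 8-fold, and 4 were called lower, 3 of them at least 2-fold (33.9% of all genes), with a median log2 difference of 5.48 (5.09 with genes under the floor set at their bound). Stra8, the inducer of meiotic entry, was at 13.1, 24.9 and 30.4 CPM against 0, 0.0648 and 0.242 CPM, and the lowest germ cell value was in replicate 1. Meioc, which prolongs meiotic prophase, was at 718, 718 and 783 CPM against 1.19, 2.07 and 1.81 CPM (log2 8.77, SE 0.133, adjusted p = 9.87e-16), and Ythdc2, its partner, at a mean of 315.5 against 24.004 CPM (log2 3.72). Gm4969, annotated elsewhere as the gene of MEIOSIN, was at 362 against 5.67 CPM (log2 5.996). Per length, Meioc was at 161 ± 8.28 FPKM in germ cells and Stra8 at 12.7 ± 4.91 FPKM (SD, n = 3), so the transcript of the inducer was the lower in every germ cell library. Lower in germ cells were Rara, a retinoic acid receptor, at 12.2 against 92.2 CPM (log2 -2.92), Rec8, and the homeobox genes Msx1 (log2 -1.16) and Msx2, whose call was lost without germ cell replicate 1 or 2 or somatic replicate 1 (log2 -0.68, -0.69 and -0.52, adjusted p = 0.0579, 0.0602 and 0.138), with the replicate block (0.0538) and with DESeq2 (0.0512).

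Germline RNA-binding and piRNA pathway genes were among the most restricted. Of 24 tested, 23 were higher, all of these at least 2-fold and 21 at least 8-fold, with a median log2 difference of 7.22 (6.57 with genes under the floor at their bound). Ddx4 (VASA), a helicase of germ granules, was at 582, 612 and 626 CPM against 0.501, 1.62 and 1.21 CPM (log2 9.09, SE 0.169, adjusted p = 2.40e-15). Mael, a transposon silencing factor, was at 544, 472 and 597 CPM against 0.313, 1.17 and 1.03 CPM (log2 9.32, SE 0.193, adjusted p = 5.43e-15). Neither gene overlapped between fractions. Among the PIWI proteins, Piwil2 was at a mean of 285 CPM, Piwil1 at 13.2 and Piwil4 at 3.62 CPM in germ cells, with 1.84, 0.0216 and 0.605 CPM in somatic cells. Dnd1, a germ cell RNA-binding protein, was called lower at 1.96 against 3.21 CPM (log2 -0.71, SE 0.309, adjusted p = 0.0440). Its germ cell libraries (2.39, 1.94 and 1.57 CPM) nearly reached its somatic ones (2.94, 4.21 and 2.48 CPM), and the call was lost without germ cell replicate 2 or 3 or somatic replicate 1 or 2 (log2 -0.80 to -0.50, adjusted p = 0.0559 to 0.198). It was also lost with the replicate block (adjusted p = 0.0712), DESeq2 (0.0839), DESeq2 size factors (0.0538) and all 12 libraries (0.0645). Nanos2 and Nanos3 were too scarce to be tested.

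Transcription factors of the oocyte were already present, and later oocyte products mostly were not. Of 13 tested genes of the oocyte list, 12 were higher and 10 at least 8-fold, with a median log2 difference of 7.12 (5.17 with genes under the floor at their bound), and 9 of 22 were too scarce to be tested. Figla, which activates zona pellucida genes, was at 46.4, 45.1 and 53.3 CPM against 0.0626, 0.259 and 0 CPM (log2 8.75, SE 0.289, adjusted p = 5.25e-13). Nobox, a homeobox factor of the primordial follicle, was at 22.8, 14.3 and 26.6 CPM and at 0 in all 3 somatic libraries, at least 113-fold higher against the floor. Lhx8 was at 47.2, 26.3 and 41.5 CPM against 0, 0 and 0.0605 CPM. Germ cell replicate 2 was the lowest for Nobox and Lhx8, and all germ cell libraries still lay above all somatic ones. The zona pellucida genes Zp1, Zp2 and Zp3 were at means of 0.285, 0.376 and 0.155 CPM in germ cells, and the growth factor gene Gdf9 did not pass the test at 1.08 against 0.969 CPM (log2 0.16, SE 0.429, adjusted p = 0.728). Bmp15 was low but higher in germ cells, at 1.98 against 0.329 CPM (log2 2.55).

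Pluripotency and primordial germ cell factors formed a mixed list. Of 15 tested, 10 were at least 2-fold higher and 3 at least 2-fold lower, with a median log2 difference of 3.36 (3.24 with genes under the floor at their bound). This median depended on the setting. It was 2.45 with all 12 libraries, 2.49 without the low-count filter and 5.38 among genes of at least 1 CPM. Without germ cell replicate 1, 2 and 3 it was 2.96, 2.88 and 2.97, and without somatic replicate 1 and 2 it was 2.51 and 2.52. Nanog, Prdm14, Nanos3, Dppa2, Utf1, Esrrb and Tdgf1 were too scarce to be tested. Sall4 (8.72 CPM) and Dppa5a (6.78 CPM) were at 0 in the somatic libraries, and Zfp42 was at 20.96 against 0.274 CPM (log2 6.23). Prdm1 (BLIMP1), a founder factor of primordial germ cells that other tissues also use, was lower at 2.83 against 19.9 CPM (log2 -2.80), as were Alpl (log2 -2.85) and Ifitm3 (2.40 against 53.4 CPM, log2 -4.46). The list thus held genes on both sides. Kit, the receptor for KIT ligand, was at 183, 184 and 161 CPM in germ cells and at 33.4, 33.5 and 27.0 CPM in somatic cells (log2 2.49, SE 0.0947, adjusted p = 2.53e-12). Its ligand gene Kitl showed the opposite, at 10.3, 20.4 and 26.0 CPM against 222, 221 and 202 CPM (log2 -3.50, SE 0.202, adjusted p = 3.39e-10).

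**Figure D2:**
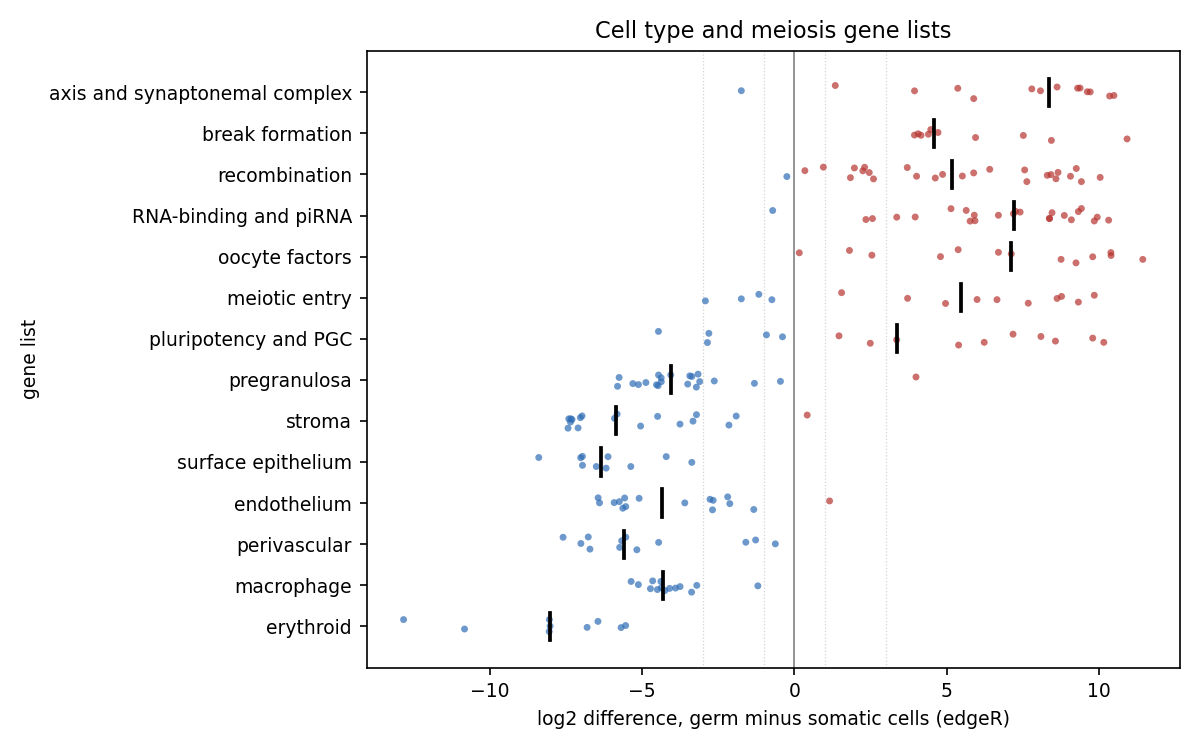
Log2 differences (germ minus somatic cells, edgeR) of the tested members of 14 meiosis, germ cell and somatic cell type lists; each point is a gene, red above 0 and blue below, black bars are list medians, and dotted lines mark 2-fold and 8-fold. Medians run from 8.35 for the axis and synaptonemal complex to -8.01 for erythroid genes, and Rec8 is the axis gene left of 0.

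Pairs of a germline paralog and its widely expressed counterpart address whether the germ cell form is added to, or takes the place of, the common form. Of 16 tested germline paralogs, 15 were at least 8-fold higher in germ cells and Rec8 was lower, with a median log2 difference of 7.29 (6.18 with genes under the floor at their bound). The 19 tested counterparts of the whole list had a median of -0.28, with 6 at least 2-fold higher and 7 at least 2-fold lower. They include Tbp, Pabpc1 and Eif4e, each at least 2-fold higher, and Pgk1, at least 2-fold lower. The germline partners of these genes were too scarce to be tested, so these pairs cannot address replacement. Among pairs with a tested germline form, more counterparts were called lower than higher, but members lay on both sides.

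In the cohesin complex, Smc1b was at 483 ± 38.3 FPKM (SD, n = 3) in germ cells, far above Smc1a, at 28.1 FPKM there and 33.02 FPKM in somatic cells. Stag3 was at 177 ± 19.11 FPKM in germ cells, against 12.6 FPKM for Stag1, which was at 11.5 FPKM in somatic cells. In both pairs the germline form was the more abundant in germ cells and the common form was still present.

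Genes of TFIID subunits were measured in the same way. Taf7l was at 353 ± 30.7 FPKM in germ cells and 1.44 ± 0.199 in somatic cells (log2 7.89, SE 0.122, adjusted p = 9.87e-16), while Taf7 was at 30.1 and 12.4 FPKM. Taf4b was at 95.1 ± 1.87 FPKM and Taf4 at 12.9 FPKM in germ cells, and Taf9b was at 63.0 FPKM beside 0.394 FPKM of Taf9, whose 1026 exon bases shared with Ak6 on the same strand make its count uncertain. Tbp, the TATA-binding protein gene, was higher in germ cells (8.49 against 2.25 FPKM, log2 1.87), and its oocyte relative Tbpl2 was too scarce to be tested. Taf7l and Taf4b exceeded their counterparts in germ cells, and both were at 1.44 FPKM or less in somatic cells.

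Some germline forms stood beside a lower common form. Slc25a31, the germ cell ADP/ATP carrier, was at 183 FPKM in germ cells and 0.438 in somatic cells (log2 8.65, SE 0.126), while Slc25a4 fell from 114 FPKM in somatic to 41.1 in germ cells (log2 -1.52, SE 0.0902). Ybx2, a germ cell mRNA-packaging protein, was at 183 against 6.38 FPKM and Ybx1 at 57.8 against 181 FPKM. Rbmxl2 was at 37.2 against 0.125 FPKM and the X-linked Rbmx at 8.30 against 35.3 FPKM. In these 3 pairs the leading member changed between the fractions.

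In other pairs the germline form was the lesser one even in germ cells. Rpl10l, a ribosomal protein retrogene, was at 53.3 FPKM in germ cells beside 390 FPKM of the X-linked Rpl10. Ldhc was at 2.62 FPKM beside 3.93 of Ldha, and Pdha2 at 4.05 beside 6.69 of Pdha1. Lin28a was at 1.39 FPKM beside 10.7 of Lin28b. Lin28b was itself higher in germ cells (log2 4.75) and at 0.387 FPKM in somatic cells, so it was no common form in these data. Pgk2 and Eif4e1b were at or near 0 in both fractions, and counts of retrogenes and their parents could be split differently under another treatment of reads with several matches.

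**Figure D3:**
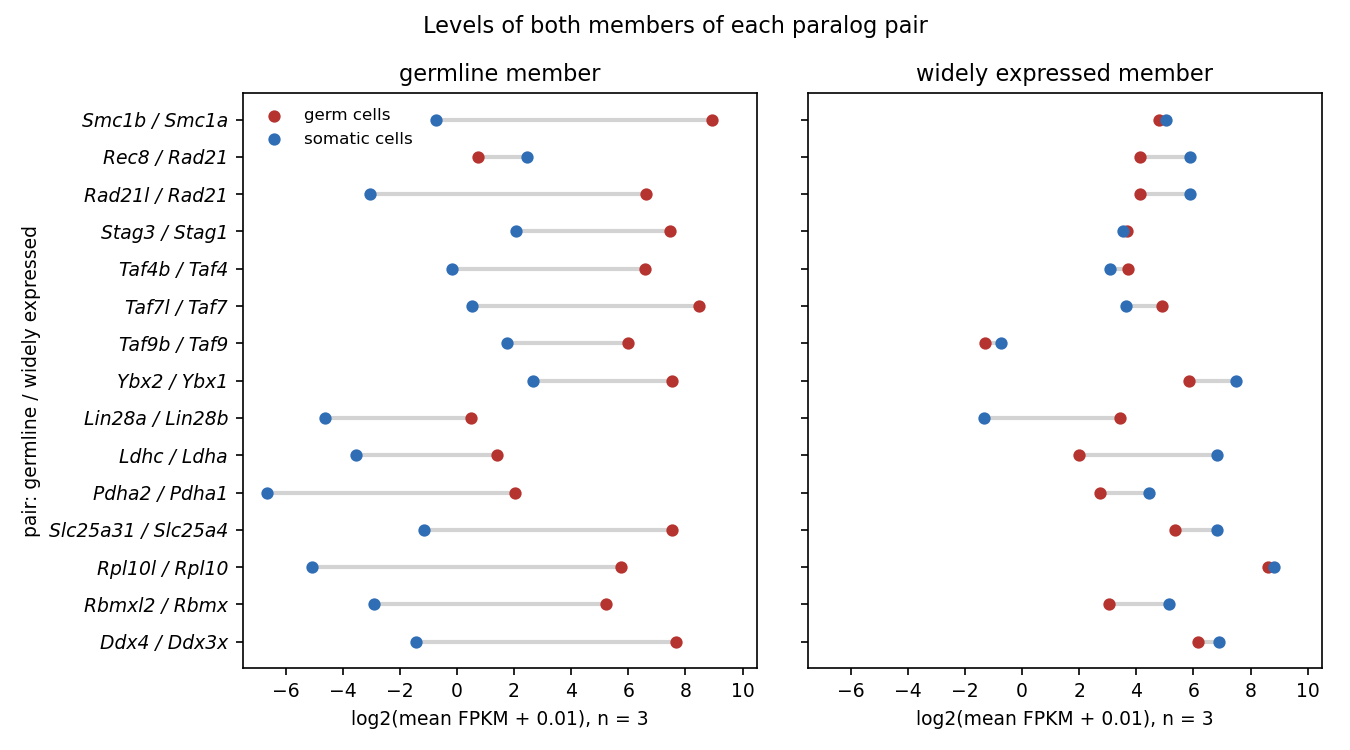
Mean FPKM of the germline member (left) and the widely expressed member (right) of 15 paralog pairs in germ cells (red) and somatic cells (blue), on a log2 scale with 0.01 added, n = 3 libraries a point. In the left panel red lies right of blue in every pair except Rec8 (1.67 against 5.43 FPKM), while in the right panel the order varies. Lin28b is drawn as a widely expressed member but was at 10.7 FPKM in germ cells and 0.387 FPKM in somatic cells.

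Chromosome X had the highest share of genes at least 8-fold higher in germ cells. X-linked genes took 4.60%, 4.51% and 4.48% of counts in germ cells and 3.60%, 3.61% and 3.51% in somatic cells (mean difference 0.956 percentage points, exact permutation p = 0.1, two-sided, the smallest possible). The groups did not overlap, and shifts of this size or more were also seen for chromosome 7 (mean 6.17% in germ and 8.01% in somatic cells) and chromosome 11 (8.56% and 9.79%). Of 704 X-linked genes tested, 26.4% were at least 8-fold higher in germ cells, against 10.2% of autosomal genes, and their median log2 difference was 0.36 against -0.004, with chromosome 12 higher still at 0.42. At least 8-fold lower were 19.2% of X-linked genes. Of the 127 genes at 10 CPM or more in germ cells with somatic libraries at the floor, 35 were X-linked, and the next chromosome, 7, held 10.

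The X-linked difference depended on which genes were counted. Among all 589 X-linked protein-coding genes tested, the median log2 difference was 0.09, against -0.12 on autosomes. For those at 1 FPKM or more in both fractions, 323 of them X-linked, it was 0.19 on X and 0.21 on autosomes. At 10 FPKM or more it was 0.18 on X (95 genes) and 0.25 on autosomes. The ratio of the median X-linked to the median autosomal FPKM was 1.00 ± 0.00819 (SD, n = 3) in germ cells and 0.962 ± 0.0255 in somatic cells. A minimum in both fractions removes one-sided genes of every chromosome by construction, so these medians are given as values only.

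Xist, the RNA that coats the inactive X chromosome, was at 29.9, 39.1 and 38.8 CPM in germ cells and at 1067, 1348 and 847 CPM in somatic cells (log2 -4.92, SE 0.163, adjusted p = 5.59e-13). Every somatic library was above every germ cell library, and 1980 of its exon bases are shared with the antisense gene Tsix, which was too scarce to be tested. Jpx and Ftx, neighbours of Xist, were lower in germ cells (0.121 against 5.17 CPM, and 10.1 against 23.3 CPM), and Rlim did not pass the test at 200.2 against 184 CPM. Of 8 genes known to escape X inactivation, 4 were higher and 3 lower, with a median log2 difference of 0.08, and they ranged from Kdm6a (309 against 98.1 CPM, log2 1.65) to Mid1 (2.49 against 11.2 CPM, log2 -2.17).

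Members of the Mage family, many of them X-linked, showed the contrast within a family. Of 17 tested, 11 were at least 2-fold higher and 5 at least 2-fold lower. The higher members were of the Magea and Mageb type, known from testis and tumours, and included Mageb16 at 13.9, 13.1 and 12.52 CPM with 0 in all somatic libraries, at least 70.2-fold higher against the floor. Mageb4 was at a mean of 32.9 CPM. The lower members were the widely expressed Maged2 (36.6 against 593 CPM, log2 -4.02), Mageh1, Magee1, Magee2 and the imprinted Magel2. Members with near-identical sequence could share reads, so single values of the Magea genes are uncertain.

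**Figure D4:**
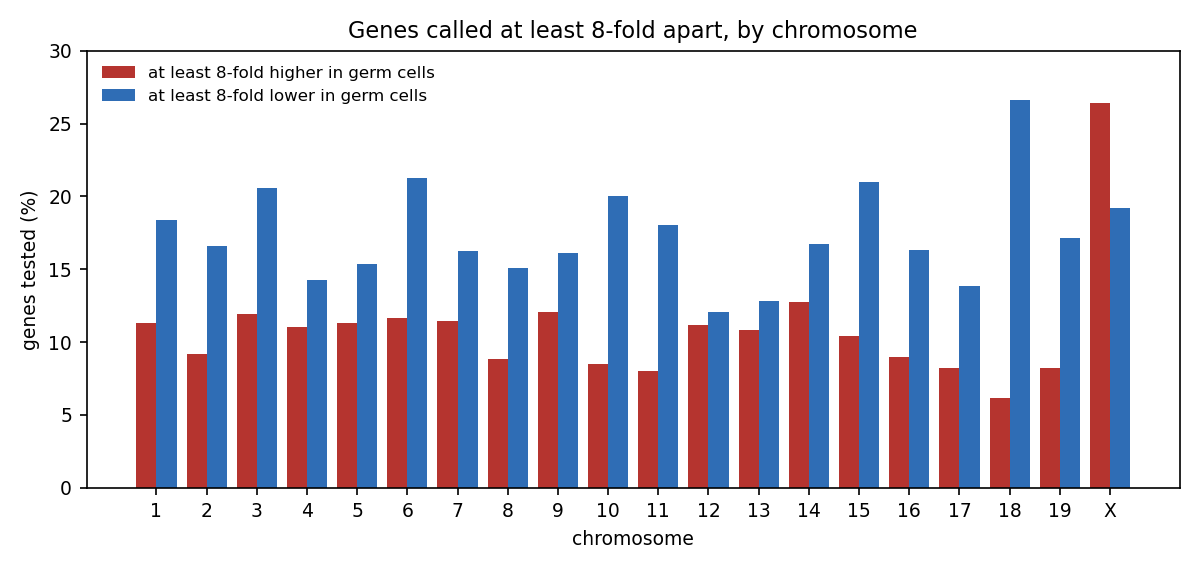
Percent of the tested genes of each chromosome that were called at least 8-fold higher (red) or at least 8-fold lower (blue) in germ cells. X has the highest red bar at 26.4%, against 10.8% of all genes tested, and chromosome 18 the highest blue bar at 26.6%, against 17.1%.

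Genes of histone methylation and the Polycomb complexes were mostly higher in germ cells. Of 27 tested, 17 were higher and 7 lower, beside 43.1% and 42.9% of all genes. At least 2-fold higher were 15 and at least 2-fold lower 2, beside 30.9% and 33.9% of all genes, and the median log2 difference was 1.17. At least 8-fold higher were Kdm4d, a demethylase (28.9 against 0.919 CPM), the X-linked Polycomb gene Scml2 (297 against 18.4 CPM, log2 4.01, SE 0.113) and Setdb2. The core enzyme complex PRC2 did not follow, since Ezh2 (log2 0.04) and Eed (log2 0.02) did not pass the test and Suz12 differed by 0.26.

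Components of the complex that represses germline genes were present in germ cells. Mga, which binds the E-box with MAX, was at 482, 477 and 451 CPM in germ cells against 145, 148 and 137 CPM (log2 1.71, SE 0.0708, adjusted p = 6.58e-12). Pcgf6 (117 against 17.2 CPM, log2 2.77) and L3mbtl2 (59.9 against 14.0 CPM, log2 2.10) were also higher. E2f6 was lower, at 23.2, 20.5 and 17.3 CPM against 68.4, 66.8 and 59.9 CPM (log2 -1.68, SE 0.109, adjusted p = 1.29e-09), and Max was slightly lower (log2 -0.52). The transcripts of this complex therefore did not move in a common direction.

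The DNA methylation list had 2 of 17 tested members at least 2-fold higher and 5 at least 2-fold lower, beside 30.9% and 33.9% of all genes. Its median was -0.04. Morc1, a transposon repressor of germ cells, was at 41.9 against 0.316 CPM (log2 7.03, SE 0.222), and Uhrf1, which guides maintenance methylation, was at 317 against 140 CPM (log2 1.18). Lower were the de novo methyltransferase Dnmt3a (116 against 341 CPM, log2 -1.55), the dioxygenase Tet1 (4.66 against 54.1 CPM, log2 -3.53) and Zfp57, which protects imprints (3.88 against 92.0 CPM, log2 -4.56). Dnmt1 differed little (230 against 187 CPM, log2 0.29), and Dnmt3b did not pass the test at 16.2 against 16.1 CPM.

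Imprinted genes were mostly lower in germ cells, whichever parental allele is the expressed one. Of 14 tested maternally expressed genes 11, and of 23 tested paternally expressed genes 18, were at least 2-fold lower (33.9% of all genes), with median log2 differences of -2.86 and -3.92. H19, a maternally expressed RNA, was at 52.2, 98.9 and 104 CPM in germ cells against 5275, 4854 and 5953 CPM (log2 -5.97, SE 0.219, adjusted p = 1.63e-12), and Dlk1, a paternally expressed ligand, at 43.8, 42.9 and 37.6 CPM against 2428, 2244 and 2256 CPM (log2 -5.80, SE 0.0940, adjusted p = 1.18e-15). Both are among the abundant transcripts of the somatic fraction, and germ cell replicate 1 held the least H19. Against the list, Zdbf2 was higher at 340, 324 and 289 CPM against 37.6, 41.8 and 35.1 CPM (log2 3.06, SE 0.0910, adjusted p = 1.74e-13), and Igf2r was higher by 0.50. Allele-specific expression was not measured.

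Genes of the DNA damage checkpoint were higher in germ cells, and p53 and its target were lower. Of 20 tested members of the list, 13 were at least 2-fold higher and 3 at least 2-fold lower, with a median log2 difference of 2.77. Atr, the kinase that responds to unpaired axes and single-stranded DNA, was at 1732, 1766 and 1769 CPM against 51.1, 52.0 and 43.2 CPM (log2 5.17, SE 0.0934, adjusted p = 1.97e-15), and its exons overlap genes on the opposite strand. Its activator Topbp1 was at a mean of 1041 against 121 CPM (log2 3.10), and Brca1, Atm, Mdc1 and Rad1 were 7.38-fold to 9.04-fold higher. Trp53 was at 12.4, 13.4 and 11.5 CPM against 138, 149 and 141 CPM (log2 -3.52, SE 0.0855, adjusted p = 2.43e-14), and Cdkn1a (p21), its classical target, at 2.18 against 35.0 CPM (log2 -4.004). Its relatives Trp63 (3.59 against 0.562 CPM) and Trp73 (4.89 against 0.563 CPM), which guard oocytes and other cells, were low in level but higher in germ cells. In the BCL2 family, 10 of 14 tested genes were called lower, 8 of them at least 2-fold, beside 42.9% and 33.9% of all genes, and 2 were not called. The 2 called higher were Pmaip1 (NOXA, 27.7 against 4.43 CPM, log2 2.65) and Bid (log2 1.14). Members called lower are not named here, so no role is assigned to either side of this list.

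Cell cycle lists did not move as a whole. The DNA replication list had 6 members at least 2-fold higher and 6 at least 2-fold lower of 24 tested (median 0.13), and the mitosis list 9 and 5 of 24 (median -0.005). Within the replication list, the cyclin gene Ccne2 was at 157 against 12.6 CPM (log2 3.64) and Pole at 349 against 49.4 CPM (log2 2.82), whereas Tyms, which makes thymidylate, was at 4.74 against 53.9 CPM (log2 -3.51). Within the mitosis list, the spindle checkpoint kinase gene Bub1 was at 433, 471 and 521 CPM against 42.6, 48.9 and 39.7 CPM (log2 3.44, SE 0.0986, adjusted p = 1.17e-13). Aurkb, the kinase of the chromosomal passenger complex, was at 0.838, 1.06 and 0.696 CPM against 36.9, 41.6 and 40.02 CPM (log2 -5.50, SE 0.175, adjusted p = 3.51e-13). These members of the same machinery lay on opposite sides without overlap. Mki67, a marker of cycling cells, was at 309 against 255 CPM (log2 0.28), a call lost without germ cell replicate 2 or somatic replicate 1 (log2 0.19 each, adjusted p = 0.0514 and 0.0843), and Pcna did not pass the test.

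Markers of the somatic cell types were lower in germ cells almost throughout. Of 21 tested pregranulosa and gonadal somatic factors, 20 were lower, 17 of them at least 8-fold (17.1% of all genes tested), with a median log2 difference of -4.05. Foxl2, the granulosa fate factor, was at 3.10, 9.03 and 10.0 CPM in germ cells against 66.6, 61.8 and 71.5 CPM (log2 -3.16, SE 0.240, adjusted p = 8.89e-09). Wnt4, the ovary-determining ligand, was at 1.74, 3.81 and 4.58 CPM against 179, 183 and 191 CPM (log2 -5.75, SE 0.169, adjusted p = 1.54e-13). Both were least in germ cell replicate 1. Amhr2, whose promoter is printed above, was at 4.32, 8.27 and 8.52 CPM against 132, 165 and 175 CPM (log2 -4.47, SE 0.173, adjusted p = 3.22e-12). Lhx2, a homeobox gene on this list, was the exception at 5.80, 6.63 and 7.77 CPM against 0.501, 0.194 and 0.544 CPM (log2 3.99, SE 0.343, adjusted p = 3.78e-08).

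Stromal markers had 17 of 18 members at least 2-fold lower and a median of -5.86. Col1a1, the chain of type I collagen, was at 28.5, 50.7 and 49.6 CPM against 7498, 6858 and 7807 CPM (log2 -7.42, SE 0.195, adjusted p = 4.92e-14), and Pdgfra at 2.71, 5.69 and 4.70 CPM against 588, 548 and 516 CPM (log2 -6.96, SE 0.161). At 1094 ± 78.6 FPKM (SD, n = 3), Col1a1 was among the 10 most abundant transcripts of the somatic fraction. Ptch1, the Hedgehog receptor, was slightly higher in germ cells at 60.5 against 45.1 CPM (log2 0.42). All 10 surface epithelium markers were at least 8-fold lower (median -6.33), among them Upk3b (1.27 against 166 CPM) and Krt19 (0.275 against 96.4 CPM). Perivascular markers had 11 of 12 at least 2-fold lower (median -5.60), led by Acta2 (0.578 against 113 CPM, log2 -7.59).

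Endothelial markers had 15 of 16 at least 2-fold lower (median -4.34), among them Kdr, the VEGF receptor (2.65 against 162 CPM, log2 -5.91), and Pecam1 (12.6, 4.99 and 10.96 CPM against 38.8, 41.3 and 49.6 CPM, log2 -2.19, SE 0.227). Tek, the angiopoietin receptor, was higher in germ cells at 28.6, 29.5 and 24.8 CPM against 10.4, 13.3 and 13.48 CPM (log2 1.16, SE 0.136, adjusted p = 1.32e-06), while its relative Tie1 was at 0.357 against 31.9 CPM. Tek and the other endothelial markers thus moved in opposite directions. All 14 macrophage markers were at least 2-fold lower (median -4.31), with Csf1r at 2.69 against 56.0 CPM (log2 -4.38). All 9 tested erythroid genes were at least 8-fold lower (median -8.01, or -6.44 with genes under the floor at their bound).

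Haemoglobin and other erythroid genes accounted for 1.24%, 1.04% and 0.748% of the somatic libraries, while no germ cell library exceeded 0.00412%. Hba-a1 was at 6982, 6127 and 4108 CPM in somatic cells. Its near copy Hba-a2 was at 709, 2.07 and 326 CPM in the same libraries, a spread that Hba-a1 did not share, so the split of reads between these copies is uncertain. Of the 8 tested mesonephric epithelium markers 5 were at least 2-fold lower, and Wnt9b, a ligand of the mesonephric duct, was among the 2 called higher (2.72 against 0.252 CPM, log2 3.40). Of 5 tested neural crest and neuronal markers 3 were higher, among them Elavl4, a neuronal RNA-binding protein, at 5.30 against 1.56 CPM (log2 1.76), and Stmn2 was lower; the defining gene Sox10 was at or near 0 in both fractions, and the summed level of the list was 95.7 to 111 CPM in germ cell and 74.3 to 95.8 CPM in somatic libraries.

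HOX cluster genes were largely restricted to somatic cells, with exceptions at the 5′ ends of the clusters. Of 33 tested, 27 were at least 2-fold lower, 25 of them at least 8-fold, with a median log2 difference of -5.80 (-5.48 with genes under the floor at their bound). Hoxc8 was at 0.867 against 88.8 CPM, Hoxc6 at 1.28 against 73.0 CPM and Hoxa5 at 0.557 against 70.9 CPM. Hoxa13 ran the other way at 13.54, 10.7 and 12.6 CPM with 0 in every somatic library, at least 65.3-fold higher against the floor, and Hoxc13 likewise at 4.58, 4.93 and 6.09 CPM, at least 27.7-fold higher. Hoxd13 (1.65 against 0.163 CPM) and Hoxd1 (10.3 against 0.317 CPM) were also at least 8-fold higher, and Hoxa4 and Hoxd8 were higher by less than 2-fold. The group 13 genes of 3 clusters and 1 gene from the other end of a cluster thus made up the members at least 8-fold higher in germ cells.

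Genes of the extracellular matrix and its receptors were lower in germ cells. Of 43 tested collagen genes, 32 were at least 2-fold lower and 6 higher (median -4.66), and together collagens took 3.15% ± 0.159 (SD, n = 3) of somatic counts and 0.0461% ± 0.00701 of germ cell counts (exact permutation p = 0.1, the smallest possible). Col19a1 was the collagen furthest on the germ cell side, at 6.32 against 0.0417 CPM, and Col2a1 was at 14.51 against 2.02 CPM (log2 2.84). Of 27 tested genes of the integrin list, 17 were at least 2-fold lower (median -1.89), with Itgb1 at 148 against 570.5 CPM and Itga8 at 1.53 against 178 CPM, and Itgae and Itgax were higher at low levels. Among cadherins and gap junction genes, Cdh1 (E-cadherin) was at 52.4, 44.4 and 52.5 CPM against 11.6, 10.6 and 14.0 CPM (log2 2.04, SE 0.123, adjusted p = 5.53e-10), while Cdh11 (3.95 against 585 CPM, log2 -7.20) and Gja1 (connexin 43, 7.59 against 207 CPM, log2 -4.75) were on the somatic side.

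Signalling lists were described by role, from ligands to receptors and targets. In the BMP, activin and TGF-beta list, 21 of 37 tested genes were at least 2-fold lower and 3 at least 2-fold higher (median -1.82). Several ligands were on the somatic side, with Tgfb2 at 1.97 against 174 CPM (log2 -6.44), Tgfb3 (log2 -6.41) and Inhba (log2 -6.54). So was Bmp2, a known inducer of the germ cell response, at 4.71, 5.92 and 8.93 CPM against 38.3, 38.2 and 44.9 CPM (log2 -2.63, SE 0.180). The ligand gene Bmp15, given above with the oocyte list, ran the other way. The TGF-beta receptor Tgfbr2 was at 2.27 against 145 CPM, but type I and type II receptors for BMP and activin were present in germ cells, with Bmpr1a at 187.55 against 197 CPM (not called), Bmpr2 at 193 against 144 CPM and Acvr2b at 40.4 against 15.6 CPM (log2 1.38). Of the intracellular SMADs, Smad2 was higher (166 against 62.0 CPM, log2 1.42) and Smad1 and Smad3 were lower (log2 -2.95 and -4.12). The target gene Id1 was somewhat higher in germ cells (220 against 148 CPM, log2 0.57), and Id2 was lower (52.2 against 184 CPM, log2 -1.82).

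The retinoic acid list was somatic, with 13 of 16 tested genes at least 2-fold lower and none at least 2-fold higher (median -3.51). Aldh1a2, which makes retinoic acid, was at 24.96, 27.04 and 30.38 CPM in germ cells against 278, 272 and 298 CPM (log2 -3.36, SE 0.0875, adjusted p = 4.60e-14). The receptors Rara and Rarg (log2 -2.87) were lower, whereas the partner receptor Rxrb was the called exception at 105 against 64.3 CPM (log2 0.71). In the WNT list, 28 of 40 tested genes were at least 2-fold lower and 1 at least 2-fold higher (median -3.24). Ligands and secreted modulators such as Rspo1 (2.44 against 96.5 CPM) and Sfrp1 (6.44 against 693 CPM) were somatic, as was the target Axin2 (log2 -2.18), and the scaffold gene Axin1 was at 234 against 88.5 CPM (log2 1.40).

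In the NOTCH list the ligands were divided between the fractions. Jag2 was at 175, 132 and 157 CPM in germ cells against 10.52, 12.8 and 11.9 CPM (log2 3.72, SE 0.115, adjusted p = 2.69e-13), and Dll3 and Dll1 were higher at low levels (4.71 and 8.13 CPM). Jag1 was lower at 20.6 against 71.8 CPM (log2 -1.80) and Dll4 was lower too. The receptors Notch1 (8.57 against 69.7 CPM), Notch2 (101 against 211 CPM) and Notch3 (4.41 against 235 CPM) and the targets Hes1 (23.98 against 295 CPM, log2 -3.62) and Heyl (log2 -6.66) were all on the somatic side. Over the list, 3 of 18 tested were at least 2-fold higher and 12 at least 2-fold lower (median -2.12). The Hedgehog list had 9 of 12 tested at least 2-fold lower (median -3.05), with Gli2 at 0.800 against 95.6 CPM and Smo at 38.0 against 293 CPM, and of its 2 members at least 2-fold higher, Hhip was at 3.88 against 0.594 CPM. The KIT list had Kit alone on the germ cell side of its 5 tested members.

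**Figure D5:**
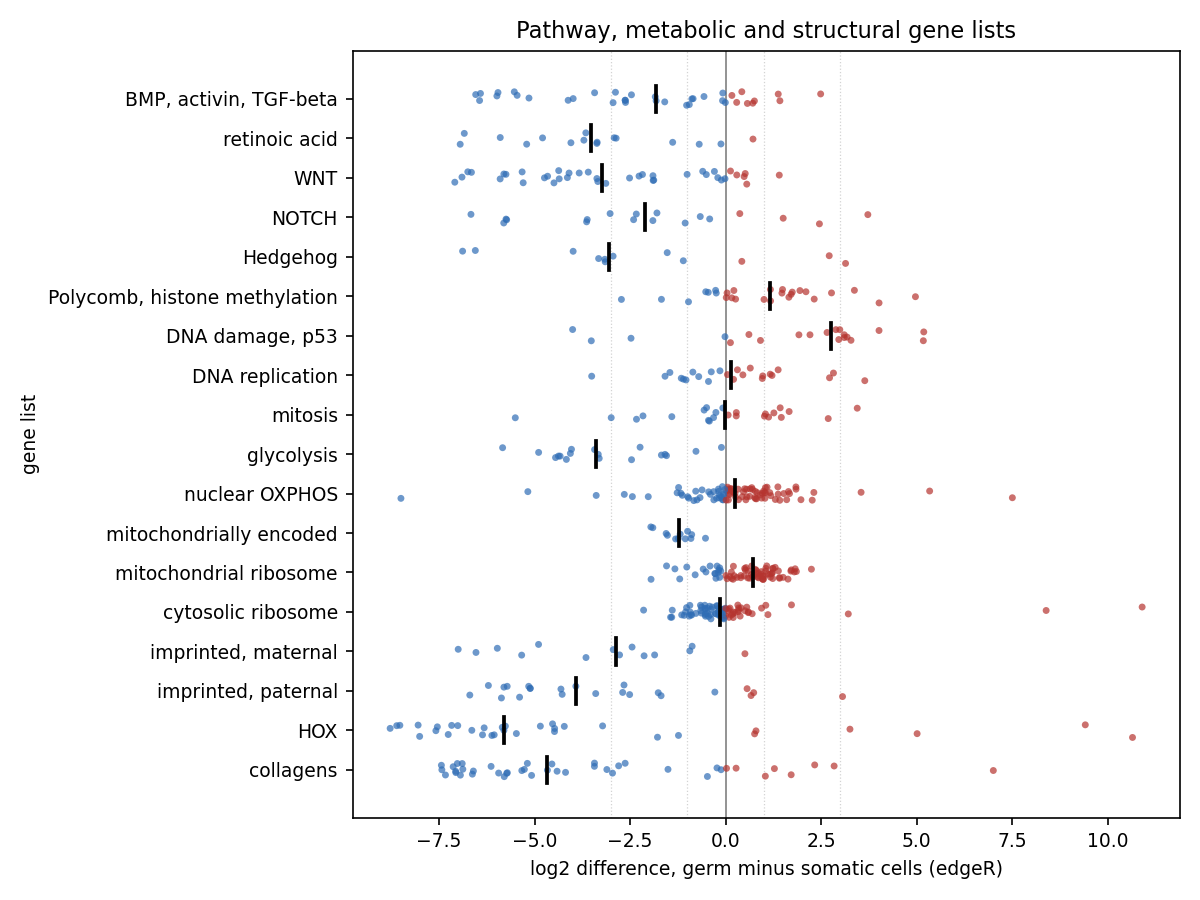
Log2 differences (germ minus somatic cells, edgeR) of the tested members of 18 signalling, chromatin, cell cycle, metabolic and structural gene lists; points are genes, red above 0 and blue below, black bars are medians, and dotted lines mark 2-fold and 8-fold. DNA damage genes (median 2.77) lie furthest right and HOX genes (median -5.80) furthest left, while replication, mitosis and cytosolic ribosome lists are centred near 0.

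Glycolysis genes were lower in germ cells. Of 18 tested 17 were called lower, 16 at least 2-fold and none higher, with a median log2 difference of -3.38. Gapdh was at 60.1, 71.9 and 77.2 CPM against 732, 747 and 776 CPM (log2 -3.43, SE 0.0941, adjusted p = 7.58e-14), Tpi1 at 5.22, 7.10 and 8.76 CPM against 404, 387 and 421 CPM (log2 -5.84, SE 0.132, adjusted p = 1.19e-14) and Ldha at 11.9, 11.5 and 15.4 CPM against 375, 379 and 403 CPM (log2 -4.89, SE 0.107, adjusted p = 9.31e-15). Each of the 3 genes, including Gapdh, which is often used as a reference, was lower in every germ cell library than in any somatic library. The muscle phosphofructokinase gene Pfkm did not pass the test at 81.9 against 88.4 CPM, while Pfkl was at 9.17 against 165 CPM. Glucose transporters were lower as well (Slc2a1 log2 -2.46, Slc2a3 log2 -1.59).

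Nuclear genes of oxidative phosphorylation had 23 of 91 tested at least 2-fold higher and 10 at least 2-fold lower, beside 30.9% and 33.9% of all genes. Their median was 0.24, and 0.38 without germ cell replicate 1. They took 0.824% ± 0.0591 of germ cell and 0.626% ± 0.000977 of somatic counts (SD, n = 3). All 12 tested mitochondrially encoded genes were lower, 8 at least 2-fold (median -1.22), and took 0.931% ± 0.0915 and 1.86% ± 0.306 of counts. Both differences separated the groups (exact permutation p = 0.1 each, the smallest possible). Among nuclear members, Atp5f1 was at 695 against 145 CPM (log2 2.26), Ndufa1 at 131 against 11.2 CPM (log2 3.54) and Cox8a at 9.12 against 95.5 CPM (log2 -3.39), and mt-Nd5 was at 532 against 1993 CPM (log2 -1.91). Of 77 tested mitochondrial ribosomal protein genes, 52 were higher and 11 lower (median 0.71), with 24 at least 2-fold higher, a share near the 30.9% of all genes. The part of poly-A selection and of reads shared with nuclear copies in the mitochondrially encoded counts was not tested.

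Of 80 cytosolic ribosomal protein genes tested, 19 were called higher and 36 lower, with 6 at least 2-fold higher, 8 at least 2-fold lower and a median of -0.15. They took 3.77% to 4.35% of counts in germ cell libraries and 4.57% to 4.73% in somatic ones, without overlap. The 3 members at least 8-fold higher were paralogs known from the germline or muscle, Rpl10l, Rpl39l (16.5 against 0.0403 CPM) and Rpl3l (3.15 against 0.337 CPM). Proteasome genes had a median of 0.21, and the germ cell subunit Psma8 was at 24.3, 19.6 and 25.1 CPM against 0.751, 0.518 and 1.45 CPM (log2 4.64, SE 0.257, adjusted p = 2.01e-10). Psmb10, a subunit of the immunoproteasome, was lower at 0.984 against 12.1 CPM (log2 -3.61). Of 22 cholesterol synthesis genes, 6 were higher and 14 lower (median -0.79), with the feedback regulator Insig1 at 136 against 46.5 CPM.

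The transcripts that filled each fraction also differed. In germ cells the highest protein-coding FPKM belonged to Eef1a1 at 2031 ± 41.5 (SD, n = 3) and Rplp1, translation genes. In the somatic fraction Hba-a1 and Hbb-bs came first, and Eef1a1 was at 3812 ± 92.5 FPKM. Hsp90aa1, the inducible cytosolic chaperone, was at 980 ± 38.6 FPKM in germ cells and 180 ± 21.5 in somatic cells (log2 2.40, SE 0.0919, adjusted p = 2.84e-12). Actb was at 130 ± 9.40 FPKM in germ cells and 1053 ± 48.3 in somatic cells (log2 -3.07, SE 0.0803, adjusted p = 4.89e-14). Of the highest genes in each fraction, Sycp1 and Hsp90aa1 were thus on the germ cell side, and Hba-a1, Col1a1 and Actb on the somatic side.

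The naming rule ranked genes by the fitted difference, which for a gene at 0 in a fraction depends on the prior count. On the germ cell side Gm44601, a long intergenic noncoding RNA gene at chr7:94368983-94372572, was at 143, 134 and 108 CPM in germ cells and at 0 in all somatic libraries, at least 683-fold higher against the floor. Also named were 4933416C03Rik (at least 350-fold), the transketolase relative Tktl2 (at least 320-fold), the X-linked AU022751 (at least 277-fold), the acetyltransferase gene Naa11 (at least 245-fold) and Akap3 (at least 194-fold), a sperm anchoring protein gene, all at 0 in every somatic library. On the somatic side the rule named Hbb-y, an embryonic globin gene at 0 in every germ cell library (at least 76.6-fold lower), together with Nlgn1, Pdgfrl, Fibin, Slitrk2, Hoxb5, Hoxb3, Hoxc10, Ndufa4l2 and Hba-a2. By the bound against the floor the order on the germ cell side differed. Ankrd31 (at least 1367-fold), Pkd1l1 (at least 1071-fold), D1Pas1 (at least 917-fold), Asz1 (at least 803-fold) and Syce3 (at least 695-fold) stood above Gm44601.

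Noncoding classes leaned to the germ cell side. Of 1662 tested long noncoding RNA genes, 48.2% were at least 2-fold higher and 25.3% at least 2-fold lower, and of 716 pseudogenes 43.9% and 19.4%. Of 15001 protein-coding genes, 27.8% were at least 2-fold higher and 36.0% lower. In counts, long noncoding RNAs nevertheless took less of the germ cell libraries (0.889% to 0.952%) than of the somatic ones (1.67% to 1.72%), where Xist, H19 and Meg3 (11.6 against 1495 CPM) belong to the class. Pseudogene counts are uncertain where reads match the parent gene. Among zinc finger genes named Zfp, 69 of 338 tested were at least 2-fold higher and 115 lower (median -0.16), beside 30.9% and 33.9% of all genes. Zfp541, a meiotic chromatin factor, was at 457, 444 and 453 CPM against 1.503, 2.40 and 0.786 CPM (log2 8.18, SE 0.172, adjusted p = 6.21e-15). Of 42 histone genes tested, 11 were at least 2-fold higher and 15 lower, beside the same shares of all genes. The class took 0.150% of germ cell and 0.256% of somatic counts on average, without overlap. Hist1h2ba, a germ cell variant of histone 2B, was at 10.6, 7.16 and 12.2 CPM with 0 in all somatic libraries, at least 53.2-fold higher. Of 255 solute carrier genes tested, 57 were at least 2-fold higher and 113 lower (median -0.67), again beside 30.9% and 33.9% of all genes.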

How the data were processed

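RNA of sorted GFP-positive and GFP-negative cells was poly-A selected, primed by random hexamers for cDNA synthesis and read from both ends. Per the labels, the authors' processing used HISAT2 2.0.5, the mm10 build, featureCounts 1.5.0-p3 and DESeq2 1.20.0. The authors deposited raw fragment counts for 54532 Ensembl genes, of which 33534 had a count in the 6 libraries used here, and FPKM values that the authors computed from these counts, gene length and depth. Tables of the authors' own comparison of dexamethasone with saline within a cell type (fold changes and p-values) were not used. Strand setting and the treatment of reads with several matches were not given in the sources used here, so pseudogenes, gene copies and overlapping genes are uncertain. Of 1875 listed or leading genes, 568 share exon bases with another gene in GENCODE annotation.

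Counts were tested with edgeR 4.0.16 in R 4.3.3 (quasi-likelihood test, TMM scaling, filterByExpr, no covariate, BH adjustment over 17941 genes, threshold 0.05) using the 3 germ cell and 3 somatic saline libraries. The procedure was checked on simulated counts in which both groups were drawn from the germ cell means and few genes were changed. In the data 86.1% of genes were called, so the check does not cover this setting. SEs are those implied by the F statistic. FPKM values served only for levels and ratios of levels. Alternatives were DESeq2 1.42.0, limma-voom 3.58.1, other scalings and filters, a replicate block, all 12 libraries and leaving out each library. A log2 difference is germ minus somatic. For a gene at or under the floor of 3 counts in every library of a fraction, the fold against the floor is a bound. It is the mean of the other group over the mean floor per library.

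Any gene of the fixed lists could be named, by preference the most abundant members and those that go against their list. Some list members were counted but are not reported here by name. To these were added the 10 genes with the largest difference in each direction among called genes whose mean reached 10 CPM and whose groups do not overlap, and the 10 genes with the highest FPKM in each fraction. The gene lists and comparisons were chosen with earlier results of these data known. Promoters matched a tested gene by symbol, chromosome, strand and a start within 5000 bases.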

Additional observations from a re-analysis of the deposited data

How the results depend on the processing

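The count of called genes was 15140 with DESeq2, 15515 with limma-voom, 15479, 15417 and 15435 with DESeq2 size factors, library totals and upper quartile factors, 14061 among genes of at least 1 CPM, 18182 of 33534 without the low-count filter and 16243 in a fit over all 12 libraries, against 15440. Without that filter 3289 genes were at least 8-fold higher in germ cells, against 1946, and the median over all genes was 0.14, against 0.005, and more scarce genes entered by construction. The median of X-linked minus autosomal genes was 0.46 with all 12 libraries and 0.85 without the filter, against 0.37, and the difference in X-linked share was 1.06 percentage points without Xist. Leaving out 1 library at a time gave 15530 to 15730 called genes (7695 to 7839 higher, 7691 to 7929 lower), 11934 to 12056 at least 2-fold apart, 5266 to 5416 at least 8-fold apart (2015 to 2232 higher, 3141 to 3289 lower), an X-linked median of 0.36 to 0.42 and a difference in X-linked share of 0.92 to 0.98. Deviations of same-numbered germ and somatic libraries correlated at 0.080, 0.068 and 0.098, those of other pairs at -0.063 to -0.017. Each library correlated best with its own number, a hint from the data only, and the numbers were not taken as pairs. With the replicate block 15283 genes were called.

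Of 1500 counts over lists recomputed under an alternative, 1481 stayed within 1.5 times, and of 750 list medians 625 moved by less than the spread between replicates. Without the low-count filter the median of neural crest and neuronal markers turned from 1.53 to -0.92; it was 0.73 with all 12 libraries, 0.61, 0.85 and 0.72 without germ cell replicate 1, 2 and 3, and 0.77 without somatic replicate 1, and among genes of at least 1 CPM the histone list had 7 members at least 2-fold higher and 9 lower, against 11 and 15. Over the alternatives of the genes named, 3688 values kept their call and direction and 16 kept their direction but lost the call, namely those of Dnd1, Msx2, Mki67 and, with limma-voom, Hba-a2 (adjusted p = 0.395). Depth limits genes near 3 counts a library, and 3 libraries a group limit the spread estimate.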

Other observations

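Chromosome 18 had the highest share of genes at least 8-fold lower in germ cells, 26.6% of those tested (117 genes), against 17.1% of all genes tested. The clustered protocadherin genes, which encode adhesion molecules known for the identity of neurons, lie on this chromosome. Of 41 tested, 37 were at least 8-fold lower and 0 at least 8-fold higher, with a median log2 difference of -5.32. Among the other genes of the chromosome, 20.1% were at least 8-fold lower. The chromosome and this gene cluster were chosen after their values were seen, members of the cluster share sequence and exons, and the share of reads assigned to each member is uncertain.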
